A study of Mus musculus with 16 samples.

Results

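Fatty acid oxidation in mitochondria and peroxisomes was followed through 36 genes, taken from the 56941 genes of the deposited count table by symbol, from a list of carnitine carriers, acyl-CoA dehydrogenases, the enzymes that complete each turn of the spiral, peroxisomal enzymes and regulators. The cells were primary murine gingival fibroblasts (mGF), grown out of gingival explants of wild-type C57Bl6 mice aged 3 to 6 months and used between passages 2 and 8. They were labelled as treated for 24 h with bovine serum albumin (BSA, the carrier of the fatty acid, as 200 µM BSA control), with 200 µM palmitate bound to BSA, with 1 ng/mL of the cytokine interleukin-1β (IL-1β), or with palmitate + IL-1β. Each condition had 4 libraries, numbered 1 to 4 for BSA, 5 to 8 for IL-1β, 9 to 12 for palmitate and 13 to 16 for palmitate + IL-1β. The study describes IL-1β as added with either the BSA carrier or palmitate, while the labels of those libraries name IL-1β alone. Whether the 4 libraries of a condition came from separate animals or cultures is not given in the sources used here, so each test measures only the spread between libraries.

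Long-chain fatty acids enter mitochondria as carnitine esters. Carnitine palmitoyltransferase 1 at the outer membrane makes the ester, a carrier in the inner membrane exchanges it for free carnitine, and carnitine palmitoyltransferase 2 releases the acyl-CoA inside. Each turn of β-oxidation then removes an acetyl-CoA in 4 steps, begun by an acyl-CoA dehydrogenase specific for chain length, and passes electrons to the electron transfer flavoprotein. Peroxisomes shorten very long and branched chains by a parallel set of enzymes. Malonyl-CoA blocks the entry enzyme, and the nuclear receptors of the PPAR family bind fatty acids and activate many of these genes in liver, muscle and fat.

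The libraries held between 21234789 and 92752515 reads assigned to genes, with the deepest being palmitate replicate 10. Levels are CPM, the reads of a gene per 1000000 reads in genes, on library sizes scaled by the trimmed mean of M-values (TMM). A fitted difference is given on the log2 scale with its standard error (SE), and was called where the adjusted p of edgeR's quasi-likelihood test, adjusted by Benjamini-Hochberg over 16306 genes, was under 0.05. In total, 35 of the 36 genes had enough reads to be tested, and Ppara was the exception. The summed level of 8 fibroblast markers was 24180 to 28310 CPM in every library, while 6 epithelial markers summed to at most 0.854 CPM, 7 leukocyte markers to at most 4.35 CPM, 4 endothelial markers to at most 1.60 CPM and 4 adipocyte markers to at most 0.234 CPM. Fewer cells of a type and less RNA per cell cannot be told apart in such bulk libraries.

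Each direction below is that of the libraries as they are labelled. Before the results, 2 sets of values bear on those labels. Of 15 genes of inflammation, which were named after their values were seen, 15 were higher in the libraries labelled palmitate than in BSA. In those labelled IL-1β 14 were higher than in BSA, and 13 were higher in the libraries labelled palmitate than in those labelled IL-1β. Of all genes, 19.8%, 10.1% and 16.5% were called higher in these comparisons, in that order. Since the list was picked from these values, its counts are no test of the labels. The chemokine gene Cxcl5, which IL-1β is known to induce, had 2.98 ± 0.192 CPM (mean ± SD, n = 4) in BSA, 29.4 ± 2.34 in the libraries labelled IL-1β and 582 ± 13.1 in those labelled palmitate. Angptl4, which fatty acids are known to induce through PPAR receptors, had 4.44 ± 1.35 CPM in BSA, 100.4 ± 3.40 in the libraries labelled IL-1β and 20.7 ± 2.67 in those labelled palmitate. Whether the 2 single treatments carry each other's labels was not tested. An exchange of the 2 labels would leave palmitate + IL-1β against BSA and the interaction term as they are. It would turn the comparisons of the single treatments with BSA into each other. The comparisons of the combination with each single treatment would trade places too, and palmitate against IL-1β would change sign.

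In BSA libraries, levels per kilobase of exon, which allow genes to be set side by side, ran from 0.0337 CPM per kb for Ppara to 27.5 ± 1.55 for Acadl (mean ± SD, n = 4). After Acadl, the long-chain acyl-CoA dehydrogenase, came Acot2 with 18.35 ± 0.588 and Acadsb with 18.3 ± 0.861, a pair that did not differ beyond their spread. Hadha had 15.5 ± 0.563 and Cpt1a, at rank 12, had 10.2 ± 0.198 CPM per kb. Among the lowest were Acacb with 0.469 ± 0.0237, Etfb with 0.475 ± 0.0740 and Ehhadh with 0.633 ± 0.0927. Lengths were those of all annotated exons of a gene together, so a gene with many alternative exons is set lower than its main transcript would be. The Etfb level is uncertain, since Etfbl overlaps the gene on the same strand and shares 48.6% of the 100-base stretches of its transcript. Reads that fit both genes can be counted for neither, so Etfb may be under-counted, and by how much was not tested. Such stretches were also shared by Acaa1a with Acaa1b (20.2%), Acot2 with Acot1 (15.6%), Hadhb with Hadhb-ps (14.1%) and Slc22a5 with Slc22a21 (13.1%).

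Summed over the 36 genes, the level was 1548 ± 14.4 CPM in BSA, 1737 ± 24.7 in IL-1β, 1419 ± 20.1 with palmitate alone and 1678 ± 30.9 with both treatments (mean ± SD, n = 4). The libraries labelled palmitate had 17 of the 35 tested genes lower than BSA and 2 higher, whereas among all genes tested 17.5% were called lower and 19.8% higher. The median log2 difference of the 35 genes was −0.15, against −0.00306 over all genes. The libraries labelled IL-1β, compared with the same BSA libraries, had 12 of the 35 genes higher and 4 lower, where 10.1% and 4.97% of all genes were called, and the median was 0.03. The combination against BSA had 6 higher and 11 lower, where 24.8% and 22.5% of all genes were called, with a median of −0.01. These 3 comparisons share their control libraries. With upper-quartile scaling in place of TMM, which moved the median of all genes by −0.05 to −0.08, the counts were 1 higher and 25 lower in palmitate, 11 and 4 in IL-1β, and 5 and 13 in the combination. Of 16306 genes tested, that scaling called 6466 in palmitate (2402 higher), 2743 in IL-1β (1192 higher) and 8053 in the combination (3115 higher). The share of higher among all called genes went from 53.1 to 37.15%, from 67.1 to 43.5% and from 52.45 to 38.7%.

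**Figure D1:**
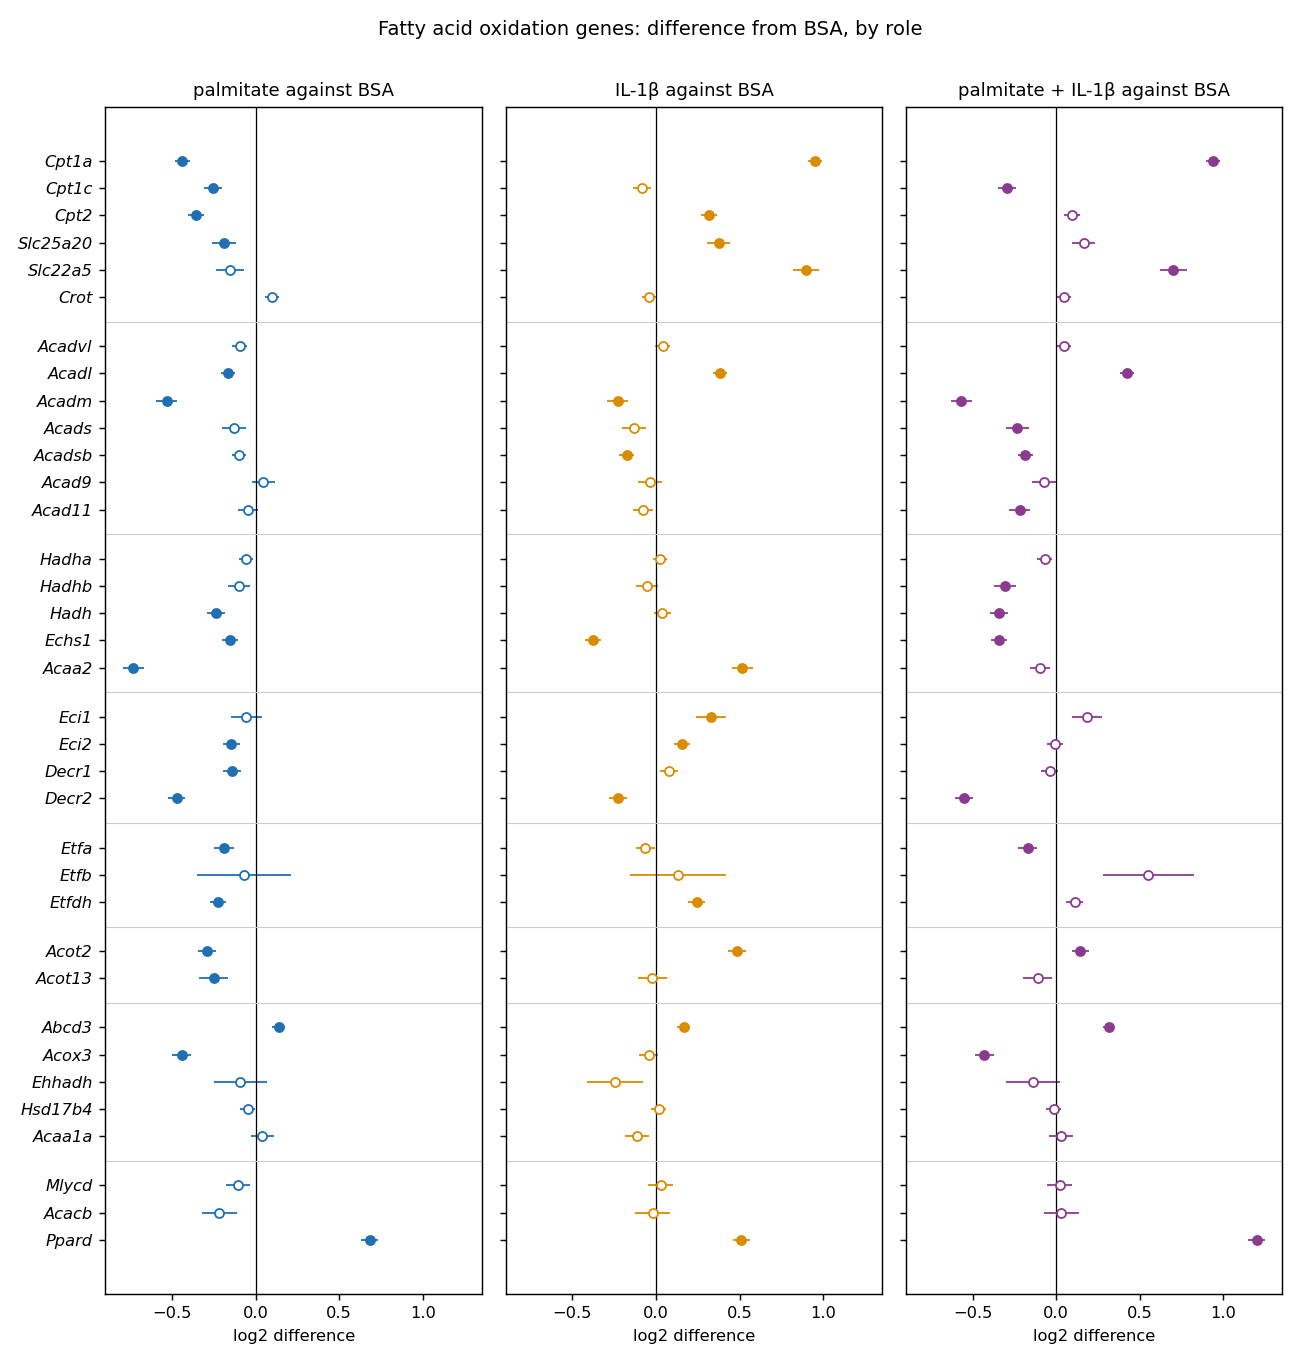
Log2 difference from BSA (horizontal axis, ± SE) for the 35 tested genes, grouped by role from the carnitine shuttle at the top to the regulators at the bottom, in the libraries labelled palmitate, IL-1β and palmitate + IL-1β. Filled points passed the adjusted p of 0.05 and open points did not. Cpt1a stands at −0.44 in palmitate, 0.95 in IL-1β and 0.94 in the combination.

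The carnitine shuttle was higher in the libraries labelled IL-1β for 4 of its 6 genes and lower in those labelled palmitate for 4, where 10.1% and 17.5% of all genes were called in these directions. Cpt1a, the enzyme that commits long-chain acyl-CoA to the mitochondrion (ENSMUSG00000024900.6, chr19:3371853-3437996 of GRCm39, plus strand), had levels of 109.8, 110.2, 114 and 113 CPM in BSA, 207, 216, 226 and 216 in IL-1β, 82.6, 86.2, 83.7 and 76.7 in palmitate, and 217, 214, 221 and 204 in palmitate + IL-1β. The IL-1β and combined libraries overlapped, all of them lay above every BSA library, and every palmitate library lay below every BSA library. Cpt1a rose 1.94-fold in IL-1β against BSA (log2 0.95, SE 0.04, edgeR adjusted p = 1.9e-17) and fell in palmitate (log2 −0.44, SE 0.04, edgeR adjusted p = 7.2e-10). With both treatments its level was 1.92 times that of BSA (log2 0.94, SE 0.04, edgeR adjusted p = 3.8e-18).

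Slc22a5, the carnitine transporter of the plasma membrane (ENSMUSG00000018900.8, chr11:53753315-53782703, minus strand), had 11.1, 10.1, 10.6 and 8.73 CPM in BSA, 18.1, 18.5, 20.4 and 18.4 in IL-1β, 9.85, 8.93, 8.66 and 9.11 in palmitate, and 16.4, 17.95, 17.2 and 14.2 in the combination. Every library with IL-1β lay above every library without it, and the palmitate and BSA libraries overlapped. Slc22a5 rose 1.86-fold in IL-1β (log2 0.90, SE 0.08, edgeR adjusted p = 3.4e-10), and its difference in palmitate was −0.16 ± 0.16 (95% interval, edgeR adjusted p = 0.147), which became a called fall with upper-quartile scaling (log2 −0.23, edgeR adjusted p = 0.0291).

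Cpt2, which releases the acyl-CoA in the matrix, had 41.5 ± 0.904 CPM in BSA, 51.75 ± 1.72 in IL-1β, 32.3 ± 0.950 in palmitate and 44.2 ± 2.78 in the combination. It fell in palmitate (log2 −0.36, SE 0.05, edgeR adjusted p = 5.2e-07) and rose in IL-1β (log2 0.32, SE 0.05, edgeR adjusted p = 1.1e-05). Slc25a20, the carrier of the inner membrane, followed with −0.19 in palmitate (edgeR adjusted p = 0.0363) and 0.38 in IL-1β (edgeR adjusted p = 2.4e-04), and the former call was lost without any 1 of 5 single libraries, BSA replicates 3 and 4 and palmitate replicates 9, 11 and 12. Cpt1c, the isoform known from neurons, fell in palmitate (log2 −0.26, SE 0.05, edgeR adjusted p = 1.6e-04) and had −0.08 in IL-1β (edgeR adjusted p = 0.307). Crot, which makes medium-chain carnitine esters in peroxisomes, passed the test against BSA in none of the 3 comparisons, with log2 differences from −0.04 to 0.10.

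**Figure D2:**
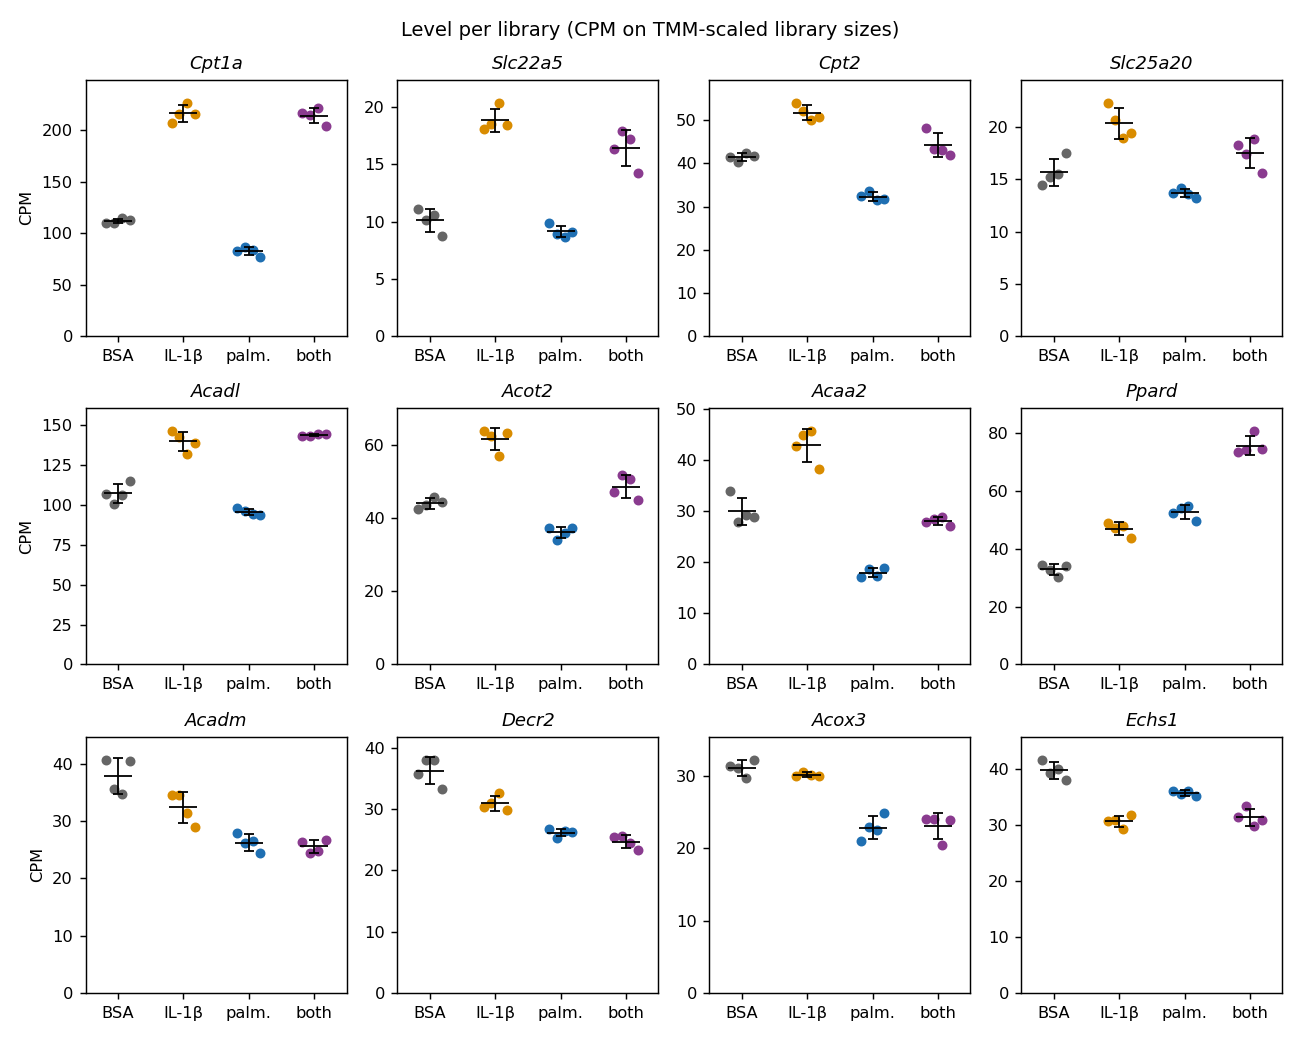
Level of 12 genes in each of the 16 libraries (vertical axis in CPM, starting at 0), with the condition as labelled along the horizontal axis, points for single libraries, and a line with bars for the mean ± SD of 4. Cpt1a, Slc22a5 and Acadl have higher levels in both groups with IL-1β than in those without, while Ppard is highest with both treatments, at 75.7 ± 3.25 CPM.

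The stretches before the transcription start sites were searched for the letters that PPAR and related receptors bind, because fatty acids act on many genes of this pathway through them. Promoters from RefSeq (table build GRCm38.p6, placed by exact match in GRCm39) were found for 31 of the 36 genes, and 250 bases before each start were searched on both strands. Some RefSeq starts lie inside the GENCODE gene, by 1448 bases for Cpt1a, 19272 for Acacb and 32952 for Eci2. Their windows are therefore not upstream of the GENCODE gene start. None of the 31 had the pair of AGGTCA half-sites with 1 base between them, found in 0.0407% of 27025 genes with a promoter. The looser pair of AGGNCA with 1 base between, found in 0.3996%, and TCAAGGTCA, found in 0.422%, were absent too. With motifs this rare, absence from 31 genes was nearly certain beforehand and carries no information. A single AGGTCA, which the other motifs contain, was present in 5 of the 31 genes (16.1%) and in 15.8% of 27025 genes with a promoter. The 5 were Cpt1a, with the half-site beginning 94 bases before the start, Cpt1c at 146, Acadvl at 87, Acadm at 249 and Echs1 at 83. In palmitate against BSA, Cpt1a, Cpt1c, Acadm and Echs1 were called lower and Acadvl had −0.10 (edgeR adjusted p = 0.0944), while in IL-1β against BSA Cpt1a rose, Acadm and Echs1 fell, and Cpt1c and Acadvl were not called. The absence of the letters from these windows says nothing of binding elsewhere.

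The 4 promoters below are shown because each holds the half-site outside any annotated untranslated region, where the printed stretch ends. They run 5′ to 3′ on the strand of the gene, at chr19:3373051-3373270 (plus) for Cpt1a, chr7:44624307-44624525 (minus) for Cpt1c, chr11:69906271-69906504 (minus) for Acadvl and chr3:153650318-153650530 (minus) for Acadm, with the half-site in capitals as AGGTCA or, on the other strand, TGACCT.
Cpt1a: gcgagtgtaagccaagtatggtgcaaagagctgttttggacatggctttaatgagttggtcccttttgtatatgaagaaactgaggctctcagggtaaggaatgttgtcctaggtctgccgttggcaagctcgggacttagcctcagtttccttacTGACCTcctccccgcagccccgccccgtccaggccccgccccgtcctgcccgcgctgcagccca
Cpt1c: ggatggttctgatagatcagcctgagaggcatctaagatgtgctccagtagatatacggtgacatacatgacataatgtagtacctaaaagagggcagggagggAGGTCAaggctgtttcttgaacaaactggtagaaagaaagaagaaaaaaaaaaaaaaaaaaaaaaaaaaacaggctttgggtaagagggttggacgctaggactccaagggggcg
Acadvl: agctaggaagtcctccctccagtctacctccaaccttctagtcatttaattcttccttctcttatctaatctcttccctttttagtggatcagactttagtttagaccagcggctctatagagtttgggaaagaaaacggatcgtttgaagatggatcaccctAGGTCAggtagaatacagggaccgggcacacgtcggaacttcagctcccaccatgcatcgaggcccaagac
Acadm: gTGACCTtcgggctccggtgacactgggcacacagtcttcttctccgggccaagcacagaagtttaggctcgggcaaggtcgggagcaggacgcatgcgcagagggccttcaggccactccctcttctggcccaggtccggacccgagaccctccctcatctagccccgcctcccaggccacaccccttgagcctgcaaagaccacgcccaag

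The acyl-CoA dehydrogenases, which begin each turn, did not move together. Acadm, the medium-chain enzyme (ENSMUSG00000062908.13, chr3:153627989-153650317, minus strand), had 40.7, 35.7, 34.8 and 40.55 CPM in BSA, 34.6, 34.6, 31.5 and 29.0 in IL-1β, 28.0, 26.1, 26.45 and 24.4 in palmitate, and 26.4, 24.4, 24.8 and 26.7 in the combination. All libraries with palmitate lay below all libraries without it, and the IL-1β libraries lay just below those of BSA. Acadm fell in palmitate (log2 −0.53, SE 0.06, edgeR adjusted p = 2.4e-08) and in the combination (log2 −0.57, SE 0.06, edgeR adjusted p = 5.0e-09). Its smaller fall in IL-1β (log2 −0.23, SE 0.06, edgeR adjusted p = 0.0107) was lost when BSA replicate 1, BSA replicate 4 or IL-1β replicate 8 was left out.

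Acadl, the long-chain enzyme, had 107 ± 6.06 CPM in BSA, 139.8 ± 5.95 in IL-1β, 95.5 ± 2.11 in palmitate and 144 ± 0.734 in the combination. It rose in IL-1β (log2 0.38, SE 0.04, edgeR adjusted p = 5.9e-08) and fell in palmitate (log2 −0.17, SE 0.04, edgeR adjusted p = 0.00252). Acadsb, for short branched chains, fell in IL-1β (log2 −0.18, SE 0.04, edgeR adjusted p = 0.00538), and with Acads, for short chains, and Acad11, for very long chains, it was also lower in the combination than in BSA, by log2 differences of −0.19 to −0.23. Acadvl, the very-long-chain enzyme, and Acad9, which also helps assemble respiratory complex I, were called in no comparison with BSA. With upper-quartile scaling, Acadvl, Acads and Acadsb were also called lower in palmitate, by −0.16 to −0.20. Counted by gene under TMM, 2 of the 7 dehydrogenases fell and 0 rose in palmitate, and 1 rose and 2 fell in IL-1β, where the shares of all genes were 17.5% lower and 19.8% higher in palmitate and 10.1% higher and 4.97% lower in IL-1β.

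Of the 5 genes for the later steps, Acaa2 moved most. Acaa2, the mitochondrial thiolase that splits off acetyl-CoA (ENSMUSG00000036880.11), had 33.9, 27.9, 29.35 and 28.8 CPM in BSA, 42.8, 44.9, 45.6 and 38.4 in IL-1β, 17.1, 18.6, 17.35 and 18.9 in palmitate, and 27.8, 28.4, 28.95 and 27.1 in the combination. The 3 levels stood clear of each other, with palmitate at the bottom, IL-1β at the top, and BSA and the combination overlapping between them. Acaa2 fell in palmitate (log2 −0.73, SE 0.06, edgeR adjusted p = 4.1e-11), the largest fall of the 35 genes there, and rose in IL-1β (log2 0.52, SE 0.06, edgeR adjusted p = 1.3e-07). With both treatments the difference from BSA was −0.10 ± 0.12 (95% interval, edgeR adjusted p = 0.206), called lower with upper-quartile scaling (log2 −0.18, edgeR adjusted p = 0.0188).

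Echs1, the short-chain enoyl-CoA hydratase (ENSMUSG00000025465.14, chr7:139684839-139696570, minus strand), had 41.55, 39.3, 40.0 and 37.9 CPM in BSA, 30.6, 30.9, 29.2 and 31.7 in IL-1β, 36.1, 35.5, 36.1 and 35.1 in palmitate, and 31.4, 33.3, 29.75 and 30.9 in the combination. Every treated library lay below every BSA library, and those with IL-1β were the lowest. Echs1 fell in IL-1β (log2 −0.38, SE 0.05, edgeR adjusted p = 9.1e-07), the largest fall of the 35 genes there, and in palmitate (log2 −0.15, SE 0.05, edgeR adjusted p = 0.0112).

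Hadha and Hadhb encode the α and β subunits of the mitochondrial trifunctional protein and lie head to head on chromosome 5. Hadhb (ENSMUSG00000059447.14, chr5:30359204-30389997, plus strand) had 29.8, 27.7, 34.0 and 28.1 CPM in BSA, 28.1, 27.9, 28.6 and 30.4 in IL-1β, 28.8, 26.4, 26.6 and 30.4 in palmitate, and 26.7, 23.8, 23.8 and 22.2 in the combination. The BSA, IL-1β and palmitate libraries overlapped, and the combined libraries lay below all of BSA and IL-1β. Hadhb was lower in the combination than in BSA (log2 −0.31, SE 0.07, edgeR adjusted p = 2.6e-04), while Hadha had −0.07 (SE 0.04, edgeR adjusted p = 0.174) and a level of 141 ± 6.10 CPM against 148 ± 5.38. With upper-quartile scaling Hadha was called lower there too (log2 −0.15, edgeR adjusted p = 0.00341). The difference between the subunits was not tested. Hadh, the dehydrogenase for medium and short chains, fell in palmitate (log2 −0.24, SE 0.05, edgeR adjusted p = 5.0e-04) and had 0.04 in IL-1β (edgeR adjusted p = 0.694).

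Unsaturated fatty acids need auxiliary isomerases and reductases. Decr2, the peroxisomal dienoyl-CoA reductase (ENSMUSG00000036775.14, chr17:26300178-26309528, minus strand), had 35.75, 38.0, 38.0 and 33.35 CPM in BSA, 30.3, 31.0, 32.6 and 29.8 in IL-1β, 26.8, 25.3, 26.4 and 26.2 in palmitate, and 25.4, 25.6, 24.5 and 23.4 in the combination. The levels stepped down from BSA to IL-1β and to the libraries with palmitate, and the latter 2 groups overlapped with each other alone. Decr2 fell in palmitate (log2 −0.47, SE 0.05, edgeR adjusted p = 9.4e-09) and in IL-1β (log2 −0.23, SE 0.05, edgeR adjusted p = 0.00244). Its mitochondrial counterpart Decr1 had −0.14 in palmitate (SE 0.05, edgeR adjusted p = 0.0393), a call lost without any 1 of 5 single libraries, BSA replicates 1, 3 and 4 and palmitate replicates 10 and 12. The isomerase genes Eci1 and Eci2 rose in IL-1β by 0.33 and 0.16 (edgeR adjusted p = 0.0117 and 0.0284), both calls being lost without BSA replicate 3 or IL-1β replicate 5. The Eci2 call was also lost without BSA replicate 1 or IL-1β replicate 6, with upper-quartile scaling, with no filter on low counts and in a fit of the 2 conditions alone.

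Electrons from the dehydrogenases pass through the flavoprotein of Etfa and Etfb to the ubiquinone reductase of Etfdh. Etfdh had 46.6 ± 1.80 CPM in BSA, 55.1 ± 3.32 in IL-1β, 39.75 ± 2.11 in palmitate and 50.3 ± 1.18 in the combination, which gave a rise of 0.24 in IL-1β (SE 0.05, edgeR adjusted p = 6.4e-04) and a fall of −0.23 in palmitate (SE 0.05, edgeR adjusted p = 5.3e-04). Etfa fell in palmitate (log2 −0.19, SE 0.06, edgeR adjusted p = 0.00894), and Etfb, with 9 to 70 reads per library, was called in none. Of the thioesterases, which free acyl groups from CoA, Acot2 of the mitochondrial matrix had 44.1 ± 1.41 CPM in BSA, 61.7 ± 3.13 in IL-1β, 36.2 ± 1.56 in palmitate and 48.7 ± 3.11 in the combination. Acot2 rose in IL-1β (log2 0.48, SE 0.05, edgeR adjusted p = 1.6e-08) and fell in palmitate (log2 −0.29, SE 0.05, edgeR adjusted p = 3.3e-05). Acot13 fell in palmitate only among the comparisons with BSA (log2 −0.25, SE 0.09, edgeR adjusted p = 0.0217), and that call was lost without any 1 of 5 single libraries, BSA replicates 1 and 4 and palmitate replicates 9, 11 and 12.

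In peroxisomes, the importer and an oxidase moved apart. Abcd3, which carries acyl-CoA into the peroxisome (ENSMUSG00000028127.11, chr3:121552423-121609141, minus strand), had 93.1, 92.9, 91.9 and 95.2 CPM in BSA, 103, 106, 106 and 103 in IL-1β, 105, 104, 103 and 98.1 in palmitate, and 120.4, 114, 114 and 116 in the combination. Every treated library lay above every BSA library, and the combined libraries above all others. The rises were small, at 1.101-fold in palmitate (log2 0.14, SE 0.04, edgeR adjusted p = 0.00472), 1.12-fold in IL-1β (log2 0.17, SE 0.04, edgeR adjusted p = 0.0027) and 1.24-fold in the combination (log2 0.32, SE 0.04, edgeR adjusted p = 4.1e-08). The call in palmitate was lost with upper-quartile scaling (log2 0.07, edgeR adjusted p = 0.149) and with no filter on low counts (log2 0.12, edgeR adjusted p = 0.0649).

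Acox3, the oxidase for branched chains (ENSMUSG00000029098.18, chr5:35740326-35772717, plus strand), had 31.4, 31.15, 29.7 and 32.2 CPM in BSA, 30.0, 30.6, 30.2 and 30.0 in IL-1β, 21.0, 23.0, 22.5 and 24.9 in palmitate, and 24.1, 24.04, 20.4 and 23.9 in the combination. The libraries with palmitate lay below all those without it. Acox3 fell in palmitate (log2 −0.44, SE 0.06, edgeR adjusted p = 2.0e-07), and its difference in IL-1β was −0.04 ± 0.11 (95% interval, edgeR adjusted p = 0.678). The bifunctional enzymes Ehhadh and Hsd17b4 and the thiolase Acaa1a were called in no comparison with BSA, with log2 differences from −0.25 to 0.04. Hsd17b4 was called lower in palmitate with upper-quartile scaling (log2 −0.12, edgeR adjusted p = 0.0414).

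Among the regulators, Ppard rose in every treatment. Ppard, the PPAR receptor expressed in most tissues (ENSMUSG00000002250.17, chr17:28451674-28520448, plus strand), had 34.4, 32.7, 30.3 and 34.05 CPM in BSA, 48.8, 47.2, 47.95 and 43.6 in IL-1β, 52.5, 54.1, 54.9 and 49.6 in palmitate, and 73.6, 74.2, 80.5 and 74.4 in the combination. The 4 conditions did not overlap, in the order BSA, IL-1β, palmitate and palmitate + IL-1β. Ppard rose 1.61-fold in palmitate (log2 0.68, SE 0.05, edgeR adjusted p = 1.2e-12), 1.43-fold in IL-1β (log2 0.51, SE 0.05, edgeR adjusted p = 7.2e-09) and 2.30-fold in the combination (log2 1.20, SE 0.05, edgeR adjusted p = 4.9e-19).

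Ppara, the PPAR receptor of liver and muscle (ENSMUSG00000022383.14, chr15:85618656-85687067, plus strand), had 0.118, 0.517, 0.114 and 0.140 CPM in BSA, 0.123, 0.195, 0.221 and 0.207 in IL-1β, 0.388, 0.275, 0.440 and 0.164 in palmitate, and 0.198, 0.0331, 0.0321 and 0.258 in the combination. These values rest on 1 to 25 reads per library, where a count of 0 would allow 3 reads (0.0330 to 0.146 CPM). Ppara had too few reads to be tested, so no difference is given for it. Mlycd, which degrades malonyl-CoA, and Acacb, which makes the malonyl-CoA at the mitochondrial surface, were called in no comparison with BSA, with log2 differences from −0.22 to 0.03. Acacb was called lower in palmitate with upper-quartile scaling (log2 −0.29, edgeR adjusted p = 0.0271).

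The combined treatment can be set beside each single treatment. Against IL-1β, palmitate + IL-1β had 13 of the 35 genes lower and 2 higher, where 16.1% and 18.9% of all genes were called, with a median log2 difference of −0.10. Against palmitate it had 11 genes higher and 2 lower, where 5.71% and 4.1% of all genes were called, with a median of 0.10. Of the 11, Acadvl (log2 0.14, SE 0.04, edgeR adjusted p = 0.0425) lost its call without any 1 of 10 single libraries. That call was also lost with upper-quartile scaling, with no filter on low counts, without mitochondrially encoded genes and in a fit of the 2 conditions alone. The largest rises against palmitate were those of Cpt1a (log2 1.38, SE 0.04, edgeR adjusted p = 1.4e-20), Slc22a5 (log2 0.86, SE 0.08, edgeR adjusted p = 2.0e-09) and Acaa2 (log2 0.64, SE 0.06, edgeR adjusted p = 1.0e-08). Hadhb and Echs1 fell by 0.21 and 0.19 on the log2 scale (edgeR adjusted p = 0.0409 and 0.011), and the call for Hadhb was lost without any 1 of 5 single libraries, palmitate replicates 9 and 12 and replicates 14, 15 and 16 of the combination.

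Palmitate against BSA and palmitate + IL-1β against IL-1β use separate libraries. The genes called lower in both were 11 of the 35 (31.4%, against 11.9% of all genes), namely Cpt1c, Cpt2, Slc25a20, Acadm, Hadh, Acaa2, Eci2, Decr2, Etfdh, Acot2 and Acox3, and those called higher in both were Abcd3 and Ppard (5.71%, against 14.4% of all genes). For Slc25a20, Eci2 and Etfdh, 1 or both of the 2 calls were lost when single libraries were left out. Across the 35 genes the differences of the 2 comparisons had Pearson's r of 0.816 and Spearman's rho of 0.678, where genes are not independent replicates, and over all genes they had 0.841 and 0.727. For IL-1β against BSA and palmitate + IL-1β against palmitate, also in separate libraries, 10 genes were called higher in both (28.6%, against 3.81% of all genes), namely Cpt1a, Cpt2, Slc25a20, Slc22a5, Acadl, Acaa2, Etfdh, Acot2, Abcd3 and Ppard. Echs1 was lower in both (2.86%, against 1.99% of all genes), and across the 35 genes r was 0.910 and rho 0.856, against 0.355 and 0.407 over all genes. For these correlations, the 35 genes and all genes were not matched by level.

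**Figure D3:**
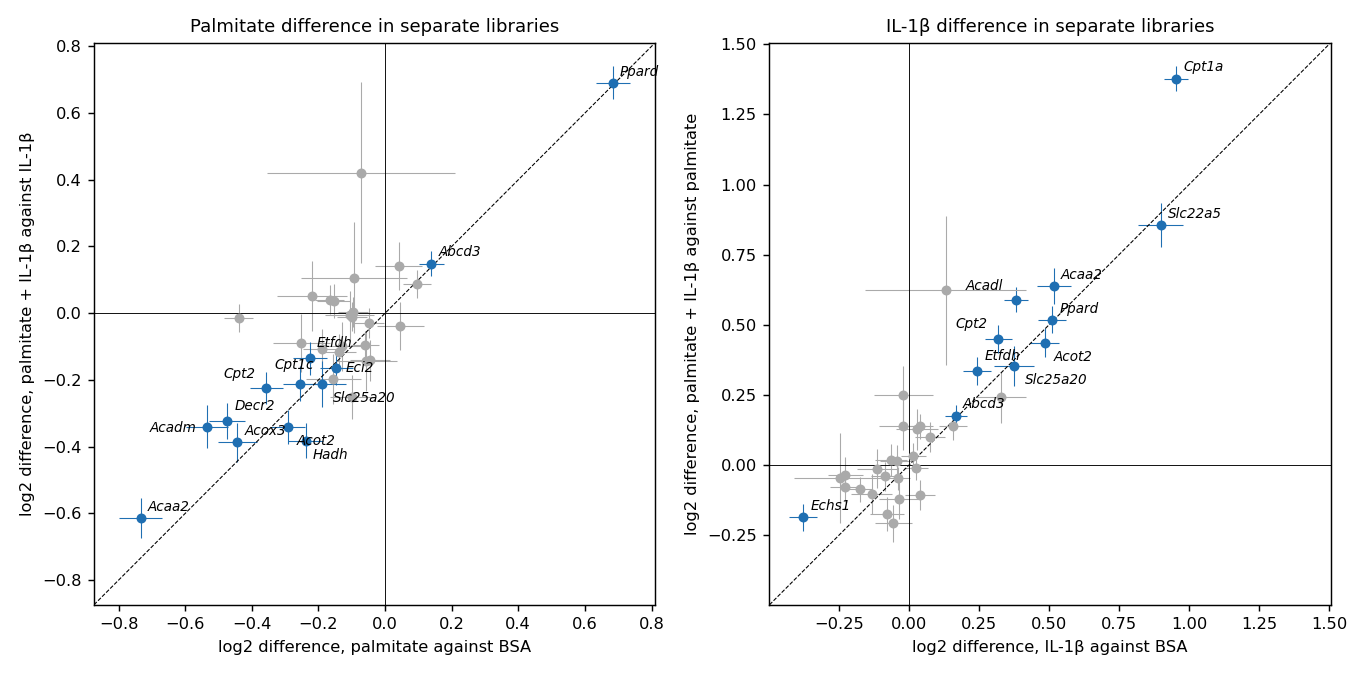
Log2 difference (± SE) of the 35 tested genes for palmitate without IL-1β (horizontal axis) and with IL-1β (vertical axis) on the left, and for IL-1β without and with palmitate on the right, each pair from separate libraries. Named blue points were called in the same direction in both, and on the dashed line the 2 differences are equal. On the right, Cpt1a lies above the line, at 0.95 without and 1.38 with palmitate.

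The interaction term asks whether the difference made by palmitate changes with IL-1β. Of the 35 genes, Cpt1a was called higher and 0 lower, where 0.159% and 1.83% of all genes were called in these directions. Palmitate against BSA gave −0.44 for Cpt1a, whereas palmitate + IL-1β against IL-1β gave −0.01 ± 0.08 (95% interval), so the term was 0.42 (SE 0.06, edgeR adjusted p = 1.6e-05). Acadl had 0.21 (SE 0.06, edgeR adjusted p = 0.0775), from −0.17 without and 0.04 with IL-1β, and passed with upper-quartile scaling (0.24, edgeR adjusted p = 0.0228). The Ppard term was 0.01 ± 0.14 (95% interval, edgeR adjusted p = 0.99).

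The single treatments were also compared directly, a comparison added after the data were seen. The libraries labelled palmitate had 18 of the 35 genes lower than those labelled IL-1β and 3 higher, where 15.2% and 16.5% of all genes were called, and the median log2 difference was −0.20. Cpt1a differed most (log2 −1.39, SE 0.04, edgeR adjusted p = 7.7e-22), then Acaa2 (log2 −1.25, SE 0.06, edgeR adjusted p = 1.6e-16) and Slc22a5 (log2 −1.05, SE 0.08, edgeR adjusted p = 2.8e-12). The 3 genes higher with palmitate were Echs1, Ppard and Crot, by 0.22, 0.17 and 0.14, and the call for Crot was lost without palmitate replicate 9. All 6 genes of the carnitine shuttle passed this test, with Crot higher and the other 5 lower.

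Beyond the 36 genes, lists of related genes were read from the same fit, and their counts stand against 19.8% higher and 17.5% lower of all genes in palmitate, and 10.1% higher and 4.97% lower in IL-1β. Among 24 targets and partners of the PPAR receptors, 21 were tested, and 4 were higher and 10 lower in palmitate against BSA, while 8 were higher (38.1%) and 0 lower in IL-1β. In palmitate the shares were 19.05% higher, close to that of all genes, and 47.6% lower. Angptl4, an inhibitor of lipoprotein lipase, rose 4.80-fold in palmitate (log2 2.26, SE 0.14, edgeR adjusted p = 5.3e-09) and 23.0-fold in IL-1β (log2 4.52, SE 0.13, edgeR adjusted p = 2.6e-12). Pparg, the PPAR receptor of fat cells, had 19.6 ± 0.251 CPM in BSA, 17.35 ± 0.971 in IL-1β, 9.81 ± 0.732 in palmitate and 9.45 ± 1.12 in the combination, and fell in palmitate (log2 −0.99, SE 0.07, edgeR adjusted p = 1.1e-12). Fgf21, a hormone of fasting, fell in palmitate (log2 −1.44, SE 0.33, edgeR adjusted p = 8.2e-04) from 0.657 ± 0.186 to 0.260 ± 0.0607 CPM, on 6 to 29 reads per library.

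The lipid droplet protein gene Plin2 had 62.4 ± 0.763 CPM in BSA, 84.4 ± 5.59 in IL-1β, 50.1 ± 2.36 in palmitate and 83.8 ± 2.72 in the combination. Its interaction term was 0.30 (SE 0.07, edgeR adjusted p = 0.00775), while that of Angptl4 was −1.65 (SE 0.17, edgeR adjusted p = 3.9e-05). Pdk4, which turns cells from glucose to fat oxidation and was named after its values were seen, had 32.8 ± 1.90 CPM in BSA, 92.4 ± 5.81 in IL-1β, 40.8 ± 1.19 in palmitate and 120.5 ± 5.38 in the combination. Its rise was 0.31 in palmitate (SE 0.05, edgeR adjusted p = 1.2e-05) and 1.496 in IL-1β (SE 0.05, edgeR adjusted p = 2.3e-20).

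**Figure D4:**
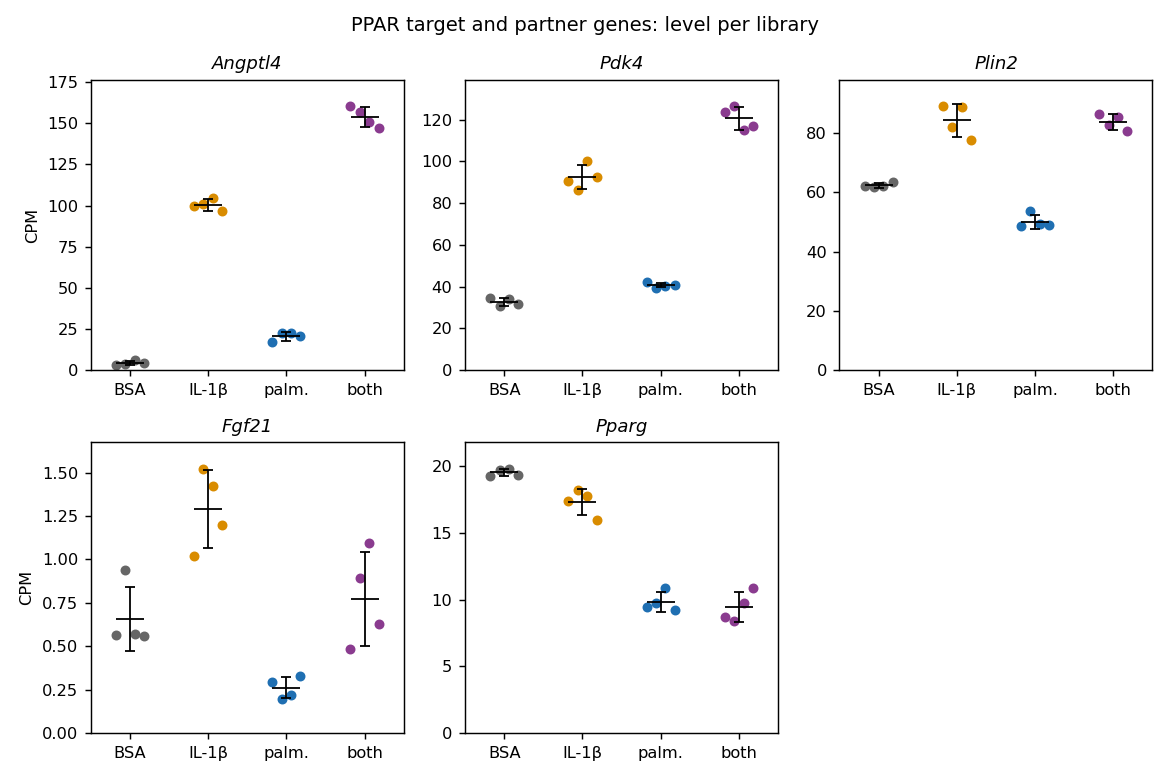
Level of 5 PPAR target and partner genes in each library (vertical axis in CPM, starting at 0), with the condition as labelled along the horizontal axis and lines for the mean ± SD of 4 libraries. Angptl4, Pdk4 and Plin2 are higher in the libraries labelled IL-1β than in those labelled palmitate, and Pparg is lower in both groups with palmitate.

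Among genes of ketone body metabolism, Oxct1, which lets cells use ketone bodies, fell in palmitate (log2 −0.50, SE 0.04, edgeR adjusted p = 1.5e-11) and in IL-1β (log2 −0.33, SE 0.04, edgeR adjusted p = 4.2e-07). Bdh2, a short-chain dehydrogenase, fell in palmitate (log2 −0.84, SE 0.14, edgeR adjusted p = 2.0e-05).

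Of 13 genes for malonyl-CoA and the kinase AMPK, which relieves the malonyl-CoA block, 3 were higher and 4 lower in palmitate, and 3 higher and 1 lower in IL-1β. These were 23.1% and 30.8% in palmitate and 23.1% and 7.69% in IL-1β, where all genes had 19.8% and 17.5%, and 10.1% and 4.97%. Camkk2, a kinase that activates AMPK, had 18.7 ± 0.868 CPM in BSA, 23.1 ± 0.544 in IL-1β, 30.2 ± 0.727 in palmitate and 27.7 ± 1.91 in the combination, with an interaction term of −0.42 (SE 0.08, edgeR adjusted p = 0.00106). The regulatory subunit Prkab2 fell in palmitate (log2 −0.70, SE 0.06, edgeR adjusted p = 7.9e-11). Prkag3 also fell (log2 −1.91, SE 0.34, edgeR adjusted p = 3.9e-05), on 7 to 33 reads per library.

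Another 26 genes of fatty acid oxidation outside the 36 included 21 that were tested, of which 2 were higher and 5 lower in palmitate, and 1 higher and 0 lower in IL-1β. These were 9.52% and 23.8% in palmitate and 4.76% and 0% in IL-1β, where all genes had 19.8% and 17.5%, and 10.1% and 4.97%. The thioesterase Acot4 rose in palmitate (log2 0.88, SE 0.20, edgeR adjusted p = 6.2e-04), while Acot1 (log2 −0.70, SE 0.18, edgeR adjusted p = 0.0025) and Amacr, the racemase for branched chains (log2 −0.40, SE 0.07, edgeR adjusted p = 2.8e-05), fell. Acot1 shares sequence with Acot2, as given above, and had 1.98 ± 0.351 CPM in BSA. Of 16 genes of peroxisome biogenesis, 1 was higher and 3 lower in palmitate, and 1 higher and 0 lower in IL-1β. The 18.75% lower in palmitate was close to the 17.5% of all genes, and the 6.25% higher in each was below the 19.8% and 10.1% of all genes. Pex11g, of the family for peroxisome division, fell in palmitate by a log2 difference of −0.45, and Pex5, the import receptor, rose by 0.18.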

How the data were processed

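Bulk RNA-seq of mGF was measured in 16 libraries, 4 per condition, which were grouped by the deposited labels and joined to the table by library name. The authors used Trimmomatic 0.39 for trimming, STAR 2.7.10a for alignment to GRCm39 and HTSeq 2.0.9 for strand-specific counting per gene, according to the submitters' processing notes and the study's methods, and deposited raw counts with no filter or normalization. The kit for total RNA named in the labels differs from the oligo(dT) kit named in the methods. Rows naming no gene (18.3 to 21.4% of a library) were left out of library sizes and tests, and mitochondrially encoded genes took 10.7 to 14.0%. Since ambiguous alignments have a row of their own, genes with near-identical copies can be under-counted.

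Counts were fitted with edgeR 4.0.16 (R 4.3.3), by the robust quasi-likelihood test with a mean per condition over all 16 libraries, TMM scaling and filterByExpr (minimum count 10, minimum total 15). This left 16306 genes, with a common biological coefficient of variation of 6.08%. Benjamini-Hochberg adjustment ran over all of them, with a threshold of 0.05. CPM used TMM-scaled library sizes, and exon lengths and positions came from GENCODE vM39. Intervals and limits for low counts cover counting or replicate error only. Alternatives were upper-quartile scaling, DESeq2 1.42.0, no filter, at least 10 counts in every library, no mitochondrially encoded genes, only the 2 conditions compared, and each library left out in turn. The members, the other lists and the tests were chosen with earlier results of these data known. Values per library were given for the genes with the largest called changes in each direction (5 and 5 for palmitate against BSA, 3 and 3 for IL-1β against BSA and for palmitate + IL-1β against palmitate), for a called interaction, and for Cpt1a, Ppara and Ppard, and from each other list the 3 largest called differences in palmitate against BSA and called interactions were named, apart from items that are not reported here.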

Additional observations from a re-analysis of the deposited data

Results flagged for a closer look

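In 5 of 140 groups of 4 libraries, 1 library lay far from the other 3 by Dixon's gap ratio, which chance alone gives in about 1 of 20 groups. For Acad9, replicate 13 of palmitate + IL-1β had 14.2 CPM and the others 12.2 to 12.5. For Hadh, IL-1β replicate 8 had 34.0 CPM and the others 38.55 to 39.25. For Acox3, replicate 15 of palmitate + IL-1β had 20.4 CPM and the others 23.9 to 24.1. For Hsd17b4, BSA replicate 4 had 70.75 CPM and the others 64.2 to 64.9. For Ppard, replicate 15 of palmitate + IL-1β had 80.5 CPM and the others 73.6 to 74.4.

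The difference made by palmitate changed with IL-1β, by the interaction term of edgeR's quasi-likelihood fit, for 5 of the genes described with values. Cpt1a had 0.42 (edgeR adjusted p = 1.6e-05) and Plin2 0.30 (edgeR adjusted p = 0.00775), while Angptl4 had −1.65 (edgeR adjusted p = 3.9e-05) and Camkk2 −0.42 (edgeR adjusted p = 0.00106). Cxcl5 had −3.20 (edgeR adjusted p = 1.1e-21). Of the 15 genes of inflammation, named after their values were seen, 12 had a called negative term, with a median of −1.67 over the 15. Among all genes, 1.83% were called lower. The list was picked from these values, so its count and median are no test of an interaction.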

How the results depend on the processing

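No paired analysis was possible because the library numbers 1 to 16 are not shared between conditions. The 35 genes gave 102 calls over the 7 comparisons, and none of them changed direction under any alternative run. Upper-quartile scaling lost 4 calls and added 15, no filter lost 6 and added 0, DESeq2 lost 0 and added 1, at least 10 counts in every library lost 0 and added 1, leaving out mitochondrially encoded genes lost 1 and added 2, and fitting only the 2 conditions lost 2 and added 1. With upper-quartile scaling or with no filter, 1 gene in place of 2 was higher in palmitate than in BSA, since Abcd3 was lost. With no filter, 1 in place of 2 was higher in palmitate + IL-1β than in IL-1β. With upper-quartile scaling, 2 genes in place of 1 had a called positive interaction, Acadl (0.24, edgeR adjusted p = 0.0228) joining Cpt1a. The cause of these changes was not tested.

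Without each single library in turn, the genes higher and lower numbered 2 to 3 and 14 to 17 in palmitate against BSA, 10 to 12 and 3 to 4 in IL-1β against BSA, 5 to 7 and 10 to 12 in palmitate + IL-1β against BSA, 2 to 4 and 10 to 14 against IL-1β, 10 to 11 and 1 to 3 against palmitate, 1 to 2 and 0 for the interaction, and 2 to 3 and 16 to 19 in palmitate against IL-1β. The 4 genes higher than in IL-1β came without replicate 15 of the combination, and the 2 with a called interaction without BSA replicate 2 or without IL-1β replicate 5. In all, 17 of the 102 calls were lost without at least 1 library, at most 7 of them by any 1 library. Low counts limit Ppara and Etfb most, with at most 25 and 70 reads per library. For Etfb, reads can also be lost to the overlap with Etfbl, so its counts may not reflect depth alone.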
